A study of Mus musculus with 6 samples.

Results

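Oxidative phosphorylation genes, which code for the subunits of the respiratory chain and of the ATP synthase, were followed in mouse intestinal organoids with and without Smad4. Members were the protein-coding genes, pseudogenes left out, whose symbols began with Ndufa, Ndufb, Ndufc, Ndufs, Ndufv (not Ndufaf), Uqcr, Cox4, Cox5, Cox6, Cox7, Cox8, Atp5, mt-Nd, mt-Co, mt-Atp or mt-Cytb, together with Sdha, Sdhb, Sdhc and Sdhd. This rule took 99 of the 31227 genes in the table, 86 coded in the nucleus and 13 in the mitochondrial genome. No expression value entered the rule. Of these members, 93 passed the filter on low counts and were tested, 80 nuclear and all 13 mitochondrial; the other 6 were Cox4i2, Cox6a2, Cox7b2, Cox8b, Cox8c and one of the 2 genes named Atp5o, with 3 of them at 0 in every library.

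Bulk RNA was sequenced from 6 libraries in 3 groups of 2: wild-type (WT) organoids, Smad4-deficient (Smad4 KO) organoids, and Smad4-deficient organoids given 0.5 nM TGF-β. All were grown in the same medium with EGF, Noggin and R-spondin1, and all carry a time of 48 h in their labels. It is unclear from the protocol whether TGF-β was given for 48 h in all or for 48 h and then 2 days more, and no WT organoids with TGF-β were analysed here, so an effect of TGF-β can be read only without Smad4. The labels call the cells intestinal epithelial cells and do not say how Smad4 was inactivated, whether each line was 1 clone, or whether replicates came from separate cultures or animals. The p-values therefore measure only the spread between these libraries, which may be technical.

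The respiratory chain sits in the inner mitochondrial membrane. Complexes I and II take electrons from NADH and succinate, ubiquinone carries them to complex III, cytochrome c carries them on to complex IV, and the proton gradient that complexes I, III and IV build drives the ATP synthase, complex V. Every complex except complex II mixes nuclear subunits with subunits coded by mitochondrial DNA, whose genes are transcribed as long precursors and then cut apart. In the intestine, absorptive enterocytes and crypt cells are known to differ in how much they rely on this pathway.

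Library totals ran from 40.55 to 50.7 M (1e6) deposited units, about 10.1 to 12.7 M sequenced fragments. Smad4 stood at 99.4 and 109.5 TMM-scaled counts per 1e6 counts (CPM) in WT, 21.7 and 23.1 in Smad4 KO and 25.2 and 29.5 with TGF-β, which in Smad4 KO is a 4.67-fold lower level (log2 -2.22 ± 0.1 SE, edgeR quasi-likelihood test, Benjamini-Hochberg adjusted p = 2.7e-05). All 10 epithelial markers were detected, with a summed level of 7973 to 14680 CPM per library; 8 leukocyte markers summed to at most 3.74 CPM and 4 endothelial markers to at most 0.949 CPM. The 13 smooth muscle and fibroblast markers summed to 18.58 and 19.35 CPM in WT, 9.47 and 9.07 in Smad4 KO and 5.44 and 8.14 with TGF-β. Replicates correlated across genes at 0.9705 to 0.9757, and the median absolute difference between replicates of a nuclear member was 0.08 to 0.09 on the log2 scale. Throughout, values are CPM in the order replicate 1 and replicate 2, changes are log2 differences ± SE, and a gene is said to rise or fall only at an adjusted p under 0.05 over the 15503 genes tested.

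Summed over their members, nuclear genes stood at 14550 and 14540 CPM in WT, 15650 and 16130 in Smad4 KO and 13600 and 13470 with TGF-β. The 13 mitochondrial genes summed to 44630 and 45570 CPM in WT, 47170 and 47980 in Smad4 KO and 39260 and 38600 with TGF-β. Both sums were highest in the Smad4 KO libraries and lowest in the treated ones, with no overlap between any of the groups. As a share of all units, mitochondrial members took 4.61% and 4.7% in WT, 4.57% and 4.64% in Smad4 KO and 3.92% and 3.87% with TGF-β. Nuclear members took 1.5% of units in both WT libraries, 1.52% and 1.56% in Smad4 KO and 1.36% and 1.35% with TGF-β. For mitochondrial members the order of WT and Smad4 KO thus depends on the scale: the share of units overlapped, and scaled CPM did not. For nuclear members the order held on both scales, but the share differed less between WT and Smad4 KO than scaled CPM did. No fit scaled to library totals alone was made. The ratio of nuclear to mitochondrial CPM went from 0.326 and 0.319 in WT to 0.332 and 0.336 in Smad4 KO and 0.347 and 0.349 with TGF-β. Without mt-Atp6, a gene described separately, the mitochondrial sum was 44170 and 45080 CPM in WT, 44520 and 45330 in Smad4 KO and 36960 and 36290 with TGF-β, so that WT and Smad4 KO overlapped and only the treated libraries stood apart. The ratio without it was 0.329 and 0.323 in WT, 0.351 and 0.356 in Smad4 KO and 0.368 and 0.371 with TGF-β, with no overlap between groups. Bulk values cannot tell fewer cells of a type from less RNA per cell.

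**Figure D1:**
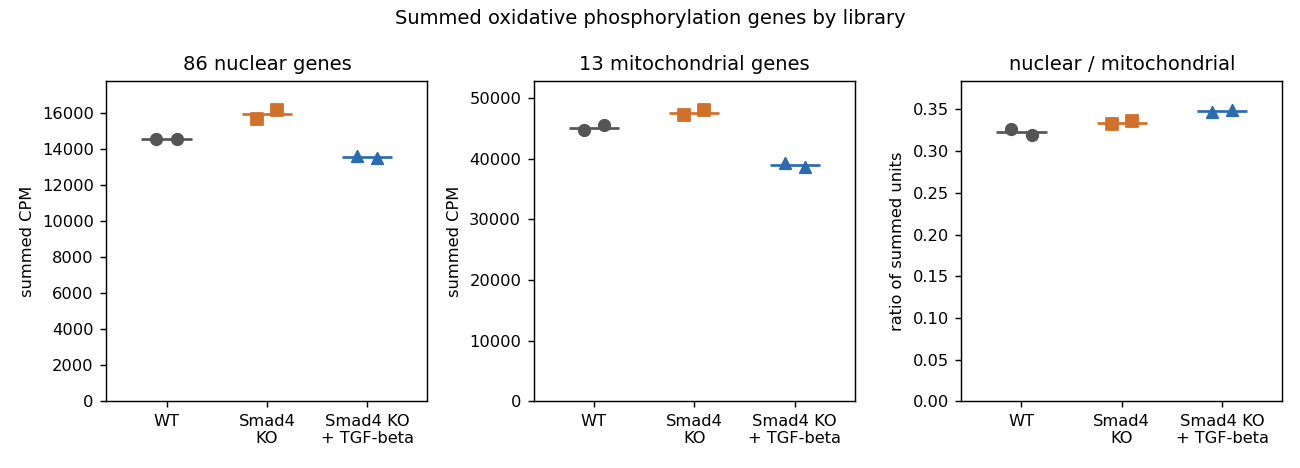
Summed CPM of nuclear members, summed CPM of mitochondrial members and their ratio, 1 point per library, for the 3 groups. Both sums are lowest in the 2 libraries with TGF-β (nuclear 13600 and 13470 CPM, mitochondrial 39260 and 38600 CPM), where the ratio is highest at 0.347 and 0.349.

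In Smad4 KO against WT, 20 of the 80 nuclear members tested rose and 2 fell, with a median log2 difference of 0.10. Over all 15503 genes, 16.9% rose and 13.4% fell, with a median of -0.02. Among the mitochondrial genes 6 rose and 3 fell, with a median of 0.14, or 0.10 without mt-Atp6. Shares called rise with level: of the 2333 genes that averaged 100 CPM or more (a level chosen after the data were seen, which many nuclear members do not reach), 37.4% rose and 18.6% fell. Of the nuclear members, 25% rose and 2.5% fell. The count of 20 fell to 13 without WT 1, 13 without WT 2 and 10 without Smad4 KO 2, and the count of 2 to 1 without WT 1 or without Smad4 KO 1. Of the 20 nuclear genes that rose, 8 did so under all 13 alternative settings: Sdhd, Uqcrc1, Uqcrfs1, Cox7a1, Ndufa4, Atp5c1, Atp5f1 and Atp5h.

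With TGF-β added to Smad4 KO organoids, 35 of the 80 nuclear members fell and none rose, and 12 of the 13 mitochondrial genes fell and none rose. Over all genes 8.48% fell and 7.78% rose, and among those with at least 100 CPM 22.4% fell and 13.8% rose; the share of nuclear members that fell was 43.8%. None of the members was higher even at an unadjusted p under 0.05, and DESeq2 likewise called 0 higher. Median differences were -0.23 for nuclear and -0.26 for mitochondrial members, against -0.01 for all genes, and 74 of 80 nuclear and 13 of 13 mitochondrial differences were below 0. Of all 15503 genes tested, both treated libraries lay below both Smad4 KO libraries in 4515 and above them in 4299. Among the 80 nuclear members they lay below in 60 and above in 1. These changes were small, at most 1.59-fold (Ndufv3) for every member that fell except Cox7a1 and Ndufa4l2, and the nuclear count rests on the libraries: it was 17 without Smad4 KO 2, 17 without treated replicate 1 and 16 without treated replicate 2. Under all 13 alternatives 13 of the 35 nuclear genes and 9 of the 12 mitochondrial genes fell.

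Against WT, the treated Smad4 KO libraries had 2 nuclear members higher and 20 lower (median -0.13), and 3 mitochondrial genes higher and 7 lower (median -0.15), where 20.7% of all genes were higher and 19% lower, with a median of -0.02, and 38.9% and 26.4% of those with at least 100 CPM. Without WT 1 the count of 20 was 10 and without treated replicate 2 it was 13; without WT 1, WT 2 or treated replicate 2 the count of 2 was 1. The comparisons share libraries: Smad4 KO stands in the first and the second, WT in the first and the third, and the treated libraries in the second and the third. Each comparison's values are therefore given side by side, without a count of members that changed in more than 1 of them.

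**Figure D2:**
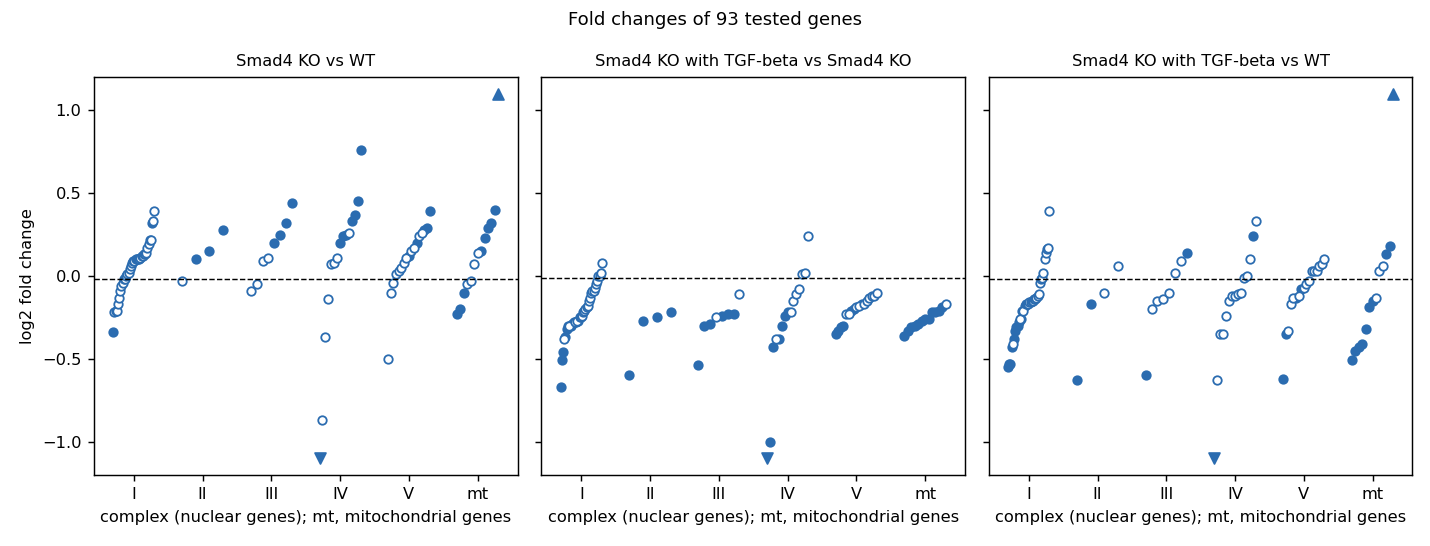
Log2 differences of the 93 tested members, 1 point per gene, by complex for nuclear genes and as 1 class for mitochondrial genes, in the 3 comparisons; filled points passed an edgeR adjusted p of 0.05, dashed lines are the median of all genes, and triangles at the edge mark Ndufa4l2 and mt-Atp6, which lie beyond the axis. With TGF-β added to Smad4 KO, no filled point lies above 0.

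Promoters of the nuclear members were read for the motifs of factors known to drive respiratory genes, because the members share a function rather than a place in the genome. Windows of 300 bases, from 250 before to 50 after a RefSeq transcript start in GRCm38.p6, were found for 68 of 86 nuclear members, which stand for 67 gene symbols. On either strand, the motif of NRF1 (GCGCA and GCGC on either side of 1 free base) was in 25.4% of them (17 of 67) against 5.2% of all 27025 genes with a window. AAGATGGC, the motif of YY1, was in 13.4% against 3.2%, ACTTCCGG, of GABP and other ETS factors, in 7.5% against 4.3%, and TCAAGGTCA, of the estrogen-related receptors, in 3.0% against 0.5%. The NRF1 letters stood in 7 of the 25 members with a window that fell with TGF-β and in 10 of the 40 not called. The 27025 genes include ones not tested here, and a background matched for expression or promoter type was not used. A match describes letters and says nothing of binding. The 5 stretches upstream of the annotated starts are shown as examples, 5′ to 3′ on the strand of the gene, with matches in capitals. Each is the part of its window outside the gene, while the shares above were taken over all 300 bases. Sdha, Sdhd and Cox6a1 hold the NRF1 letters, and Atp5g3 holds the estrogen-related receptor letters on the other strand. The 182 bases shown for Sdhb, the complex II gene that fell most with TGF-β, hold none of the 4 motifs.
Sdha, chr13:74350281-74350490, minus strand, GRCm38.p6: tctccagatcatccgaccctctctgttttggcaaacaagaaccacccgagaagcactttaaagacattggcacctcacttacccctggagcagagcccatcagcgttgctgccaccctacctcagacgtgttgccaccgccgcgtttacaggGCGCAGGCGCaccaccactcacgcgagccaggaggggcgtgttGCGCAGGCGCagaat
Sdhd, chr9:50603850-50604099, minus strand, GRCm38.p6: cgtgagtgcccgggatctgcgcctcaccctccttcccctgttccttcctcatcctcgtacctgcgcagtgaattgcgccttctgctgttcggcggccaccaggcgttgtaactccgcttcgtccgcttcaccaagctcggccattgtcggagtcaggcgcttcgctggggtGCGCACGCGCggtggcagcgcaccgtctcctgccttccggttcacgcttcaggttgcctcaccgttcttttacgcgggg
Sdhb, chr4:140961021-140961202, plus strand, GRCm38.p6: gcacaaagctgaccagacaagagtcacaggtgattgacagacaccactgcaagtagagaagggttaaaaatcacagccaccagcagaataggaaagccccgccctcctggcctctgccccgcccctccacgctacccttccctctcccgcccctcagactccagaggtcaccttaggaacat
Cox6a1, chr5:115348982-115349208, minus strand, GRCm38.p6: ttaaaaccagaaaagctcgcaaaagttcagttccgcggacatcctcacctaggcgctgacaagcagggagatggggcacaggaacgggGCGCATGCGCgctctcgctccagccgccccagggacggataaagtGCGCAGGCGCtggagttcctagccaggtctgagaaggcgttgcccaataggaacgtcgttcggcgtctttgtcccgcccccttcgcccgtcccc
Atp5g3, chr2:73911327-73911576, minus strand, GRCm38.p6: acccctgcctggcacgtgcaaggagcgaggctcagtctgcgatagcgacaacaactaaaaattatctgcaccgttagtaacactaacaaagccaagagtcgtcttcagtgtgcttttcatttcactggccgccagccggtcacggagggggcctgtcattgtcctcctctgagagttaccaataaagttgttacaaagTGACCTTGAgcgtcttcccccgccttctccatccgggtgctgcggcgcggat

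The mitochondrial genes differed widely in level among themselves. Per kb of transcript, the highest in WT was mt-Co1 (chrM:5328-6872 in GRCm38), the catalytic subunit of complex IV that passes electrons to oxygen, at 12410 and 12470 CPM per kb. Next came mt-Nd1 at 5851 and 5967 and mt-Co2 at 5242 and 5215, while mt-Nd3 at 790.3 and 792.3 and mt-Atp6 at 668.1 and 714.5 were the lowest. The range over 1 genome was therefore over 10-fold per length. Units of mt-Co1 made up 43% and 42.3% of all mitochondrial units in WT, 38% and 37.4% in Smad4 KO and 36.5% and 37.1% with TGF-β. These totals include mt-Atp6, at 1.02% and 1.07% in WT, 5.62% and 5.53% in Smad4 KO and 5.84% and 5.97% with TGF-β. Part of the lower share of mt-Co1 outside WT thus comes from the larger share of mt-Atp6.

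Subunits of complex I coded in mitochondrial DNA form its proton-pumping membrane arm. The gene mt-Nd1, whose product lies where ubiquinone enters, stood at 5599 and 5710 CPM in WT, 5396 and 5548 in Smad4 KO and 4326 and 4207 with TGF-β. It was low in both treated libraries alone: the difference from Smad4 KO was -0.36 ± 0.02 (adjusted p = 0.00013) and that from WT -0.41 ± 0.02 (adjusted p = 2.2e-05), while Smad4 KO and WT differed by -0.05 ± 0.02 (adjusted p = 0.12). A higher level in Smad4 KO was found for mt-Nd4, at 2449 and 2544 CPM in WT, 2984 and 3108 in Smad4 KO and 2567 and 2524 with TGF-β. It rose by 0.29 ± 0.03 in Smad4 KO (adjusted p = 0.00049), fell by 0.26 with TGF-β (adjusted p = 0.0014) and then overlapped with WT (0.03, adjusted p = 0.46). Its neighbour mt-Nd4l, which shares the end of its reading frame with mt-Nd4, stood at 454.1 and 479.6, then 629.6 and 603.9, then 531.4 and 524.3 CPM, a rise of 0.40 ± 0.04 (adjusted p = 0.00057). Its fall with TGF-β by 0.22 (adjusted p = 0.011) was lost without Smad4 KO 1 (0.06), treated replicate 1 (0.051) or treated replicate 2 (0.059).

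Of the remaining complex I genes on this genome, mt-Nd2 stood at 2535 and 2623 CPM in WT, 2644 and 2755 in Smad4 KO and 2300 and 2221 with TGF-β, and mt-Nd5 at 2672 and 2774, 2954 and 3078, and 2507 and 2394. Both fell with TGF-β, mt-Nd2 by 0.26 (adjusted p = 0.002) and mt-Nd5 by 0.30 (adjusted p = 0.0016). In Smad4 KO mt-Nd5 was higher by 0.15 ± 0.03 (adjusted p = 0.015), a call lost without WT 1 (0.068) or Smad4 KO 2 (0.075). The shortest of them, mt-Nd3, was at 275 and 275.7 CPM in WT, 227.2 and 243 in Smad4 KO and 205.5 and 199 with TGF-β, the one complex I gene here that fell in Smad4 KO, by 0.23 ± 0.05 (adjusted p = 0.013). That call was lost without WT 1 (0.061), WT 2 (0.06) or Smad4 KO 1 (0.06). The only member on the light strand, mt-Nd6, stood at 548.9 and 584.2, 604.3 and 643, and 527.4 and 508.9 CPM; it fell with TGF-β by 0.27 ± 0.05 (adjusted p = 0.011), lost without Smad4 KO 2 (0.055) or treated replicate 2 (0.064), and was not called in Smad4 KO (0.14, adjusted p = 0.066).

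In complex III, mt-Cytb (chrM:14145-15288), which codes for cytochrome b, stood at 4170 and 4279 CPM in WT, 5219 and 5358 in Smad4 KO and 4681 and 4593 with TGF-β. No groups overlapped: it rose by 0.32 ± 0.02 in Smad4 KO (adjusted p = 7.6e-05), fell by 0.19 ± 0.02 with TGF-β (adjusted p = 0.0013) and stayed above WT by 0.13 ± 0.02 (adjusted p = 0.0021). It is also one of the 5 mitochondrial genes for which no near-identical annotated nuclear copy was found. In complex IV, 2 of the 3 subunits coded here fell in Smad4 KO and all 3 fell with TGF-β. The level of mt-Co1 was 19180 and 19260 CPM in WT, 17950 in both Smad4 KO libraries, and 14320 and 14310 with TGF-β, falling by 0.10 ± 0.01 in Smad4 KO (adjusted p = 4.2e-05) and by a further 0.33 ± 0.01 with TGF-β (adjusted p = 1.5e-06). For mt-Co2, which receives electrons from cytochrome c, values were 3586 and 3567, 3002 and 3221, and 2561 and 2474 CPM, with falls of 0.20 ± 0.03 (adjusted p = 0.0059) and 0.31 ± 0.03 (adjusted p = 0.0019). The third subunit, mt-Co3, was at 2274 and 2482 CPM in WT and 2359 and 2283 in Smad4 KO, which overlapped, and at 1948 and 1859 with TGF-β, a fall of 0.29 ± 0.04 (adjusted p = 0.0072).

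Of the ATP synthase genes, mt-Atp8 codes for a small subunit of the membrane part and mt-Atp6 (chrM:7927-8607) for the subunit through which protons flow. Values of mt-Atp6 were 455 and 486.6 CPM in WT, 2651 and 2655 in Smad4 KO and 2293 and 2304 with TGF-β, that is, 1.02% and 1.07% of mitochondrial units in WT against 5.53% to 5.97% in the other 4 libraries. The difference was 2.49 ± 0.03 for Smad4 KO against WT (adjusted p = 2e-07) and -0.21 ± 0.03 for TGF-β (adjusted p = 0.0063). Its neighbours on the map did not move likewise. Upstream, mt-Atp8 stood at 434.3 and 498.3, 554.4 and 539.3, and 494.9 and 475.7 CPM, with a difference of 0.23 ± 0.06 in Smad4 KO (adjusted p = 0.039) that was lost without WT 1 (0.077), Smad4 KO 1 (0.15), Smad4 KO 2 (0.095) and either treated library (0.057 and 0.055), in the 4 libraries alone (0.057) and with a replicate block (0.061). Downstream, mt-Co3 begins at the last base of mt-Atp6. The ratio of mt-Atp6 to mt-Co3 in CPM was 0.2 and 0.196 in WT and 1.12 to 1.24 in the other 4 libraries.

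Sequence that mt-Atp6 shares with other genes is given here, and its part in the level of mt-Atp6 was not tested. Per kb, mt-Atp8 stood at 2129 and 2442 CPM in WT, 2718 and 2643 in Smad4 KO and 2426 and 2332 with TGF-β. The end of mt-Atp8 is the start of mt-Atp6, and the 43 shared bases, with the start codon of mt-Atp6 in capitals, are shown because units assigned there can go to either gene.
mt-Atp8 and mt-Atp6, chrM:7927-7969, plus strand, GRCm38: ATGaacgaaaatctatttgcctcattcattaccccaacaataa
A nuclear copy on chromosome 1, Gm10925, is identical to mt-Atp6 over 678 bases, and it is not a gene of the table. In all, 8 of the 13 mitochondrial genes have an annotated nuclear copy at 95% identity or more over at least 50% of the gene, among them mt-Nd4l, mt-Nd4, mt-Co2 and mt-Co3 with copies identical over 294, 876, 681 and 783 bases. Whether reads were divided differently between mt-Atp6 and its copy in the WT libraries was not tested, since the copies are not analysed here. Only annotated transcripts were searched, so a copy without an annotation would be missed. The 5 genes without an annotated copy were mt-Nd1, mt-Nd2, mt-Nd6, mt-Cytb and mt-Atp8. Of them 2 rose in Smad4 KO and 4 fell with TGF-β, with medians of 0.14 and -0.26, the same as those of all 13. The count of 2 was 1 without WT 1, without either Smad4 KO library or without either treated library, since mt-Atp8 dropped out.

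**Figure D3:**
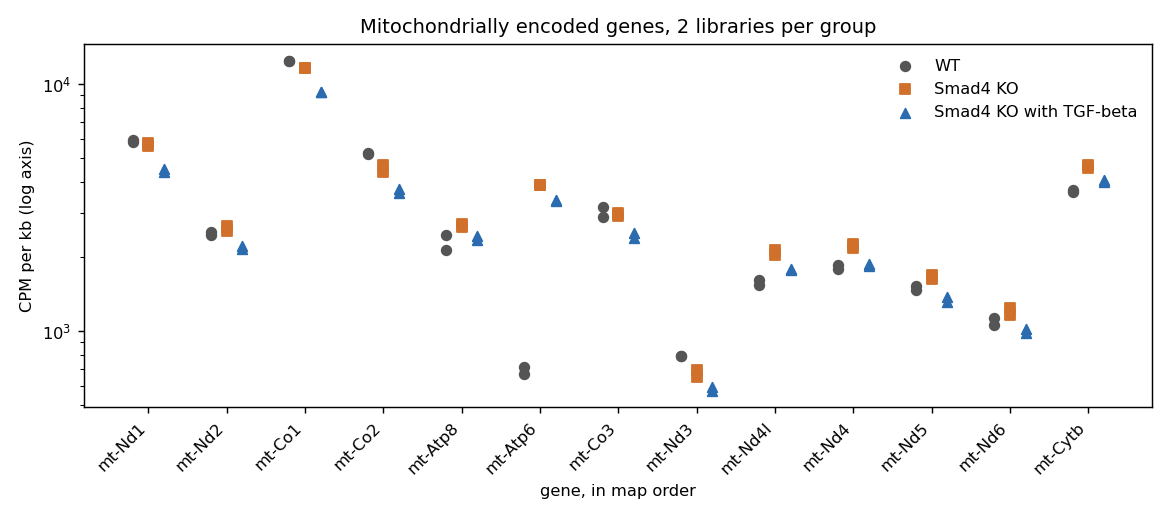
CPM per kb of the 13 mitochondrial genes in map order, on a log axis, 1 point per library, coloured by group. The genes keep a similar order of level in all libraries except mt-Atp6, which is at 668.1 and 714.5 in WT and at 3367 to 3898 in the other 4 libraries.

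Counts of nuclear members by complex follow, to be set beside the shares of all genes. Of all genes 16.9% rose and 13.4% fell in Smad4 KO, and 7.78% rose and 8.48% fell with TGF-β added. Against WT, 20.7% were higher and 19% lower with TGF-β. Of those with at least 100 CPM the shares were 37.4% and 18.6%, 13.8% and 22.4%, and 38.9% and 26.4%. Complex I had the most nuclear members, 36, and few that differed between Smad4 KO and WT. In that comparison 1 rose and 1 fell, and neither call was stable to leaving out a library. Ndufc2 (chr7:97400003-97407802), an accessory subunit of the membrane arm, stood at 65.2 and 63.6 CPM in WT, 51.0 and 50.6 in Smad4 KO and 46.0 and 49.4 with TGF-β. It fell by 0.34 ± 0.07 (adjusted p = 0.011), lost without WT 1 (0.066), Smad4 KO 1 (0.05) or Smad4 KO 2 (0.053), and was lower than WT with TGF-β by 0.43 ± 0.07 (adjusted p = 0.0031). Ndufb5, another accessory subunit of the membrane arm, was at 78.3 and 79.4, 101.1 and 95.8, and 66.8 and 76.3 CPM. Its rise in Smad4 KO of 0.32 ± 0.08 (adjusted p = 0.023) was lost without any 1 of the 4 libraries compared (0.055 to 0.1), and its fall with TGF-β by 0.46 ± 0.08 (adjusted p = 0.01) without Smad4 KO 1 (0.055). Its exons overlap by 12.33% those of Mrpl47 on the other strand, which cannot be told apart where the strand is unknown.

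With TGF-β, 11 of these 36 genes fell, 4 of the 7 core subunits that carry the electron path and 7 of the 29 accessory ones. Without Smad4 KO 2 or treated replicate 1 the count over all 36 was 4, and without treated replicate 2 it was 3; without any 1 of these 3 libraries, 1 core subunit fell and 2 or 3 accessory ones. Ndufv3 (chr17:31520115-31531331), an accessory subunit of the module that oxidises NADH, stood at 73.8 and 65.9 CPM in WT, 75.3 and 75.8 in Smad4 KO and 49.3 and 45.8 with TGF-β. Both treated libraries lay well below the other 4, with differences of -0.67 ± 0.08 from Smad4 KO (adjusted p = 0.0026) and -0.55 ± 0.08 from WT (adjusted p = 0.0021). Ndufs7, a core iron-sulphur subunit near the ubiquinone site, was less even between replicates, at 113.2 and 97.6, 91.7 and 116.2, and 71.1 and 75.2 CPM, and its fall of 0.51 ± 0.13 (adjusted p = 0.041) was lost without WT 1 (0.054), Smad4 KO 2 (0.14) or either treated library (0.18 and 0.12), and with a replicate block (0.067).

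Against WT, 12 of the 36 were lower with TGF-β (median -0.17). The count of 12 was 4 without WT 1 and 4 without treated replicate 2. Ndufa7, an accessory subunit, stood at 93.8 and 90.2 CPM in WT, 84.4 and 74.6 in Smad4 KO and 65.7 and 61.3 with TGF-β. Its difference from WT was -0.53 ± 0.08 with TGF-β (adjusted p = 0.0026) under every alternative, while that of Smad4 KO from WT was -0.21 (adjusted p = 0.095). Its fall from Smad4 KO with TGF-β by 0.32 (adjusted p = 0.04) was lost without WT 1 or WT 2 (0.069 each), Smad4 KO 1 (0.15), treated replicate 1 (0.093) or treated replicate 2 (0.18), and in the 4 libraries alone (0.064).

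Complex II, succinate dehydrogenase, is wholly nuclear and also works in the tricarboxylic acid cycle. All 4 of its genes fell with TGF-β and 3 were higher in Smad4 KO. The count of 4 was 2 without Smad4 KO 1 or either treated library, and the count of 3 was 1 without any 1 of the 6 libraries. Sdhb (chr4:140961203-140979193), the iron-sulphur subunit, stood at 206.4 and 221.2 CPM in WT, 203.4 and 215.7 in Smad4 KO and 143.1 and 134 with TGF-β. WT and Smad4 KO overlapped (-0.03, adjusted p = 0.77) and both treated libraries were lower, by 0.60 ± 0.06 against Smad4 KO (1.51-fold, adjusted p = 0.0014) and 0.63 ± 0.06 against WT (adjusted p = 0.0004). Sdha (chr13:74322254-74350280), the flavoprotein that oxidises succinate, was at 571.4 and 577, 611.7 and 614.9, and 512.6 and 505.9 CPM. It fell with TGF-β by 0.27 ± 0.03 (adjusted p = 0.0012) to below WT (-0.17, adjusted p = 0.0028); its rise in Smad4 KO of 0.10 ± 0.03 (adjusted p = 0.037) was lost without any 1 of the 4 libraries compared (0.098 to 0.12), without either treated library (0.051 and 0.05) and with a replicate block (0.073).

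The membrane anchors of complex II, Sdhc and Sdhd, hold the ubiquinone site. Sdhd (chr9:50596357-50603812) stood at 232.5 and 231.8 CPM in WT, 291 and 273.3 in Smad4 KO and 240 and 245 with TGF-β, highest in both Smad4 KO libraries and close in the other 4. It rose by 0.28 ± 0.04 in Smad4 KO (adjusted p = 0.0047), and its fall with TGF-β of 0.22 (adjusted p = 0.021) was lost without Smad4 KO 1 (0.092) or either treated library (0.11 and 0.076). Sdhc was at 191 and 200.7, 217.5 and 217.2, and 181.3 and 183 CPM; its rise of 0.15 (adjusted p = 0.045) was lost without any 1 of the 4 libraries compared (0.061 to 0.17), without either treated library (0.074 and 0.073), and also without the filter on low counts (0.053), in the 4 libraries alone (0.066) and with a replicate block (0.075). Its fall of 0.25 (adjusted p = 0.011) was lost without any 1 of the 4 libraries compared (0.052 to 0.072).

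In complex III, the step from ubiquinol to cytochrome c, 4 of 8 nuclear members rose in Smad4 KO and 6 fell with TGF-β. The first count was 2 without Smad4 KO 2, and the second 3 without any 1 of the Smad4 KO or treated libraries. Uqcrc1 (chr9:108936633-108949623), a large core protein on the matrix side, stood at 366.2 and 369.6 CPM in WT, 486.2 and 510.1 in Smad4 KO and 397.9 and 414.6 with TGF-β. No groups overlapped: it rose by 0.44 ± 0.04 (1.35-fold, adjusted p = 0.00041) and fell by 0.29 ± 0.04 with TGF-β (adjusted p = 0.0038), to 0.14 above WT (adjusted p = 0.027), a last difference that was lost without WT 1 (0.1), WT 2 (0.083) or treated replicate 2 (0.13). Uqcrfs1, the Rieske iron-sulphur protein, was at 220.1 and 230, 286.8 and 273.1, and 232 and 245.8 CPM, a rise of 0.32 ± 0.05 (adjusted p = 0.0049). With TGF-β it fell by 0.23 (adjusted p = 0.027), lost without any 1 of the 4 libraries compared (0.053 to 0.14) and with a replicate block (0.053).

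Another pattern was seen in Uqcrq (chr11:53427922-53430831), a small subunit that was the most abundant nuclear member of complex III per kb. It stood at 221.2 and 206.2 CPM in WT, 195.2 and 216.4 in Smad4 KO and 143 and 139.6 with TGF-β. As with Sdhb, WT and Smad4 KO overlapped (-0.05, adjusted p = 0.58) and both treated libraries were lower, by 0.54 ± 0.07 (1.46-fold, adjusted p = 0.0028). Uqcrc2, the second core protein, was at 312.1 and 298.2, 346.8 and 356.1, and 276 and 293.8 CPM, and fell by 0.30 ± 0.05 with TGF-β (adjusted p = 0.007); its exons overlap by 19.75% those of Pdzd9 on the other strand. Uqcrh, the hinge protein that binds cytochrome c1, rose by 0.25 ± 0.05 in Smad4 KO (adjusted p = 0.012), from 142 and 143.9 to 166.9 and 173 CPM, a call lost without WT 1 (0.056) or Smad4 KO 2 (0.058).

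Complex IV, cytochrome c oxidase, holds several subunits in tissue-specific pairs of isoforms. Of its 15 tested nuclear members, 7 rose and 1 fell in Smad4 KO and 7 fell with TGF-β; the rise count was 4 without WT 1 or Smad4 KO 1 and 3 without Smad4 KO 2, and the fall count 3 without Smad4 KO 2 or treated replicate 1 and 4 without treated replicate 2. The largest changes were in genes of low level. Cox7a1 (chr7:30184144-30186078), the isoform known from heart and skeletal muscle, stood at 10.35 and 11.6 CPM in WT, 17.8 and 19.4 in Smad4 KO and 8.98 and 9.64 with TGF-β. It rose by 0.76 ± 0.13 (1.7-fold, adjusted p = 0.0059) and fell by 1.00 ± 0.13 with TGF-β (adjusted p = 0.0036) to the level of WT (-0.24, adjusted p = 0.2). The 14 muscle markers listed, 7 of them at 0 in all libraries, summed to 43.8 and 41.2 CPM in WT, 25.4 and 24.2 in Smad4 KO and 28.1 and 31.3 with TGF-β. Of the 5 tested, 1 rose and 2 fell in Smad4 KO and 2 rose and 1 fell with TGF-β, and their part in the level of Cox7a1 was not tested. Its widely expressed partner Cox7a2 was at 108.2 and 111.3, 111.9 and 120.5, and 76.0 and 96.6 CPM; in WT, Cox7a2 had 166.6 CPM per kb against 27.95 for Cox7a1. The fall of Cox7a2 with TGF-β by 0.43 (adjusted p = 0.049) was lost under 8 of the 13 alternatives, at 0.082 in the 4 libraries alone, 0.054 with DESeq2 size factors, 0.05 with scaling that left out mitochondrial genes, and 0.083 to 0.19 without any 1 library other than treated replicate 2.

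Ndufa4, now known as a complex IV subunit despite its name, and its relative Ndufa4l2, known to be induced by hypoxia, moved in opposite directions against WT. Ndufa4 (chr6:11900292-11907497) stood at 90.6 and 89.3 CPM in WT, 111.5 and 114.2 in Smad4 KO and 105.4 and 107.5 with TGF-β, higher in both Smad4 KO libraries by 0.33 ± 0.05 (adjusted p = 0.0041) and little changed by TGF-β (-0.08, adjusted p = 0.33). Its call as higher than WT with TGF-β was lost without WT 2 or treated replicate 2, at a difference of 0.23 in each. Ndufa4l2 (chr10:127514967-127517154) was at 8.59 and 9.88 CPM in WT, 1.43 and 2.13 in Smad4 KO and 0.393 and 0.365 with TGF-β. Its groups did not overlap, and it fell by 2.37 ± 0.27 in Smad4 KO (adjusted p = 0.0012) and by 2.22 ± 0.31 more with TGF-β (adjusted p = 0.0046). The treated libraries hold 17 and 16 units of it, about 4 fragments each, so the second difference rests on few reads.

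The other isoform pairs were dominated by the widely expressed form. Cox6a1, the most abundant nuclear member of complex IV per kb, stood at 382.6 and 360.1 CPM in WT, 427 and 447.2 in Smad4 KO and 377.3 and 365.2 with TGF-β, while its muscle form Cox6a2 was at 0.496 CPM or less. Cox6a1 rose by 0.24 ± 0.04 (adjusted p = 0.0094), lost without Smad4 KO 2 (0.05), and fell by 0.24 with TGF-β (adjusted p = 0.016), lost without Smad4 KO 2 (0.081) or either treated library (0.056 and 0.088). Cox6b1 was at 190.9 and 207.8, 238.9 and 235.6, and 217.3 and 209.9 CPM, and the testis form Cox6b2 at 2.71 and 2.81, 1.65 and 1.36, and 1.67 and 1.89. Cox6b1 was higher in Smad4 KO (0.25, adjusted p = 0.014, lost at 0.056 without WT 1 and 0.063 without Smad4 KO 1) and Cox6b2 had a difference of -0.87 that did not pass (adjusted p = 0.073). Cox7b fell with TGF-β, from 203 and 204 to 168.8 and 162.5 CPM (-0.30 ± 0.04, adjusted p = 0.0059), and Cox7b2 was at 0 in all libraries. Cox8a, at 303.6 to 385.9 CPM, passed in no comparison, with Cox8b at 0 throughout and Cox8c at 0.0684 CPM in treated replicate 2 alone.

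Cox4i1, the form of subunit 4 found in most tissues, was uneven between replicates, at 339.5 and 476.4 CPM in WT, 398.6 and 343.2 in Smad4 KO and 466.3 and 281.8 with TGF-β. All groups overlapped and no difference passed (-0.14 ± 0.25 in Smad4 KO, adjusted p = 0.73), an SE that would hide changes of the size seen elsewhere in the complex. Its lung and hypoxia form Cox4i2 was at 0.0456 CPM in treated replicate 2 and at 0 elsewhere. Cox5a rose by 0.45 ± 0.11 in Smad4 KO (adjusted p = 0.024), from 180.9 and 232.6 to 289 and 275.1 CPM, lost without Smad4 KO 1 (0.1) or Smad4 KO 2 (0.066). Cox7a2l, which helps complexes III and IV join into supercomplexes, was at 207.6 and 222.3, 165.4 and 166.8, and 139.7 and 198 CPM and passed in no comparison (adjusted p = 0.11 in Smad4 KO).

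Complex V held the most abundant nuclear members. Of 17 tested, 5 rose in Smad4 KO, 7 fell with TGF-β and 4 were lower than WT with TGF-β; the first count was 3 without WT 2, the second 4 without Smad4 KO 2 or treated replicate 2, and the third 2 without WT 1 or either treated library. As shares, 29.4% rose in Smad4 KO, beside 16.9% of all genes and 37.4% of those with at least 100 CPM. Lower than WT with TGF-β were 23.5%, beside 19% and 26.4%. Against Smad4 KO 41.2% fell with TGF-β, beside 8.48% and 22.4%. Atp5a1 and Atp5b code for the alpha and beta subunits of the catalytic head. Atp5b, at 917.5 CPM per kb in WT, stood at 1769 and 1747 CPM in WT, 1865 and 1946 in Smad4 KO and 1657 and 1667 with TGF-β, and fell with TGF-β by 0.20 ± 0.02 (adjusted p = 0.0026). Atp5a1 was at 1494 and 1459, 1565 and 1549, and 1325 and 1367 CPM, and fell by 0.21 ± 0.02 (adjusted p = 0.0019) to 0.13 below WT (adjusted p = 0.0049). Both treated libraries were the lowest for each of these genes.

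Atp5c1 (chr2:10056016-10080510), the gamma subunit that turns within the head, stood at 298.7 and 284 CPM in WT, 395.1 and 365.9 in Smad4 KO and 295.9 and 300 with TGF-β. It was high in both Smad4 KO libraries alone, with a rise of 0.39 ± 0.05 (1.31-fold, adjusted p = 0.002) and a fall of 0.35 ± 0.05 (adjusted p = 0.005), and the treated libraries overlapped with WT (0.03, adjusted p = 0.65). Atp5h, a subunit of the peripheral stalk with 4 annotated near-identical copies, had 144.3 and 142.5, 171.3 and 176.2, and 138.1 and 143.3 CPM, a rise of 0.28 (adjusted p = 0.0065). It fell by 0.30 with TGF-β (adjusted p = 0.0076), lost without treated replicate 1 (0.059). Atp5f1, also of the stalk and named because it passed under every alternative, rose by 0.20 (adjusted p = 0.0074).

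Atp5g1, Atp5g2 and Atp5g3 code for the same mature protein, the c subunit of the membrane ring, and differed in their course. Atp5g1 was at 144.1 and 133.8 CPM in WT, 150 and 158.7 in Smad4 KO and 126.7 and 119.6 with TGF-β, Atp5g2 at 240.5 and 228.2, 219.5 and 236.1, and 193.3 and 174.2, and Atp5g3 at 397.3 and 378.6, 471.7 and 478.4, and 446 and 387. In Smad4 KO, Atp5g3 was higher by 0.29 ± 0.07 (adjusted p = 0.019, lost at 0.05 to 0.098 without any 1 of the 4 libraries compared). Atp5g2 was lower than WT with TGF-β by 0.35 ± 0.07 (adjusted p = 0.0073). Atp5g1 and Atp5g2 fell with TGF-β by 0.33 and 0.31 (adjusted p = 0.017 and 0.026), calls that were lost without Smad4 KO 2 (0.085 and 0.12) or treated replicate 2 (0.1 and 0.12), and for Atp5g1 also without treated replicate 1 (0.055). Atp5g1 and Atp5g2 have annotated copies and Atp5g3 has none, and a test between the 3 genes was not made. Atp5s, which the prefix takes and which is not a subunit, was lower than WT with TGF-β by 0.62 (adjusted p = 0.03, lost at 0.071 to 0.13 without any 1 of the 4 libraries compared).

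**Figure D4:**
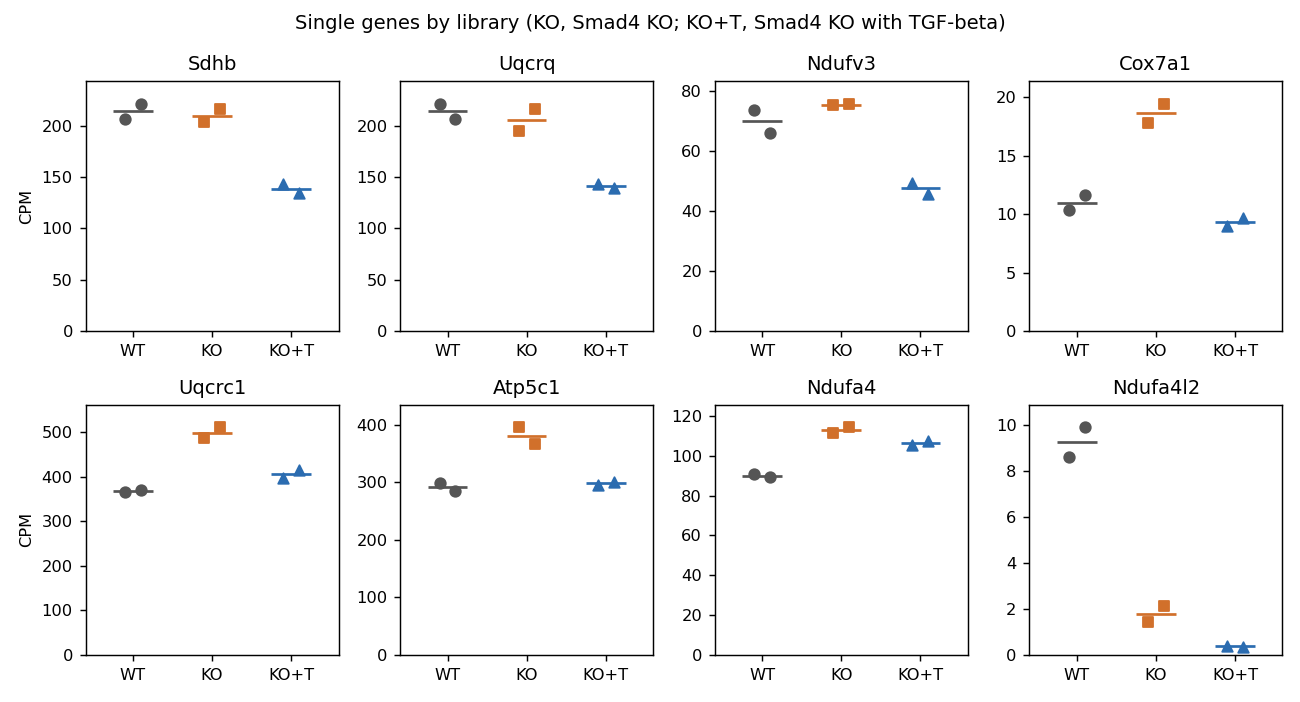
CPM of 8 nuclear members, 1 point per library and a bar at each group's mean, on axes that start at 0. Sdhb, Uqcrq and Ndufv3 are low in the treated libraries alone, Cox7a1, Uqcrc1 and Atp5c1 are highest in Smad4 KO, Ndufa4 is higher in both Smad4-deficient groups and Ndufa4l2 lower in both.

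Counts were also taken without members whose reads could be shared with another gene. Annotated copies were found for 22 members, 14 nuclear and 8 mitochondrial, and 11 nuclear members shared over 10% of their exons with another gene. Among the 60 tested nuclear members with neither, 16 rose and 2 fell in Smad4 KO, 27 fell with TGF-β, and 2 were higher and 18 lower than WT with TGF-β. Their medians were 0.10, -0.23 and -0.13, the same as those of all 80. Leaving out a library moved these as it did the whole: the 16 to 8 without Smad4 KO 2 and 10 without WT 1, the 27 to 12 or 13 without Smad4 KO 2 or either treated library, and the 18 to 9 without WT 1 and 11 without treated replicate 2.

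Other genes of the pathway were read from lists. Shares of all genes to set beside their counts are as follows. In Smad4 KO 16.9% rose and 13.4% fell, and with TGF-β added 7.78% rose and 8.48% fell. Against WT, 20.7% were higher and 19% lower with TGF-β. The tricarboxylic acid cycle, which feeds electrons to complexes I and II, had 10 of 18 genes lower with TGF-β than in Smad4 KO, a count of 6 without Smad4 KO 1, 4 without Smad4 KO 2, 4 without treated replicate 1 and 5 without treated replicate 2. Its median was -0.24, close to that of the nuclear members. Mdh2, the mitochondrial malate dehydrogenase, stood at 600.6 and 617.4 CPM in WT, 1115 and 1132 in Smad4 KO and 835.7 and 860.6 with TGF-β, a rise of 0.88 ± 0.03 (adjusted p = 5.2e-06) and a fall of 0.41 ± 0.03 (adjusted p = 0.00025). Idh2, the NADP-dependent isocitrate dehydrogenase, was lower in both groups without Smad4, at 172.1 and 171.7, 93.9 and 105.3, and 94.5 and 98.9 CPM (-0.79 in Smad4 KO, adjusted p = 0.00038).

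Mobile carriers and coenzyme Q synthesis had 5 of 18 genes lower and 1 higher with TGF-β; the 5 became 3 without Smad4 KO 2 and 2 without either treated library. Pdss1, which makes the side chain of coenzyme Q, stood at 78.6 and 86.3 CPM in WT, 81.7 and 87.2 in Smad4 KO and 38.8 and 39.0 with TGF-β, and fell by 1.12 ± 0.07 (adjusted p = 0.00023). Coq8a, needed to assemble the enzymes of that synthesis, was at 68.6 and 63.4, 55.7 and 57.3, and 26.1 and 22.3 CPM and fell by 1.22 ± 0.1 (adjusted p = 0.00049). For both, the treated libraries lay well below the other 4. Etfdh, which passes electrons from fatty acid oxidation to ubiquinone, was higher in Smad4 KO, at 72.9 and 73.3 CPM in WT against 114.4 and 119.5 (0.68, adjusted p = 0.00024). Of 45 assembly factors, 1 rose and 4 fell in Smad4 KO and 1 rose and 1 fell with TGF-β, with a median of -0.11 for TGF-β. In Smad4 KO the 4 became 2 without WT 1 or WT 2 and 1 without Smad4 KO 2, and the 1 became 0 without either WT or either treated library. With TGF-β the 1 that fell became 0 without any 1 of the 4 libraries compared, and the 1 that rose became 2 without Smad4 KO 1. The factor that rose with TGF-β was Sco2, a copper carrier for complex IV, from 5.65 and 4.51 to 12.2 and 13.9 CPM (1.36 ± 0.21, adjusted p = 0.0072).

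Of 26 genes that copy and transcribe mitochondrial DNA, 10 were lower in the treated libraries than in WT and 1 higher, beside 19% and 20.7% of all genes. The 10 became 4 or 5 without any 1 of the 4 libraries compared, and the 1 became 0 without WT 2 or treated replicate 2. Against Smad4 KO 3 fell, a count of 1 without treated replicate 1. Tfam, which packages mitochondrial DNA and starts its transcription, stood at 85.2 and 83.1 CPM in WT, 72.2 and 74.3 in Smad4 KO and 56.6 and 55.8 with TGF-β, and fell with TGF-β by 0.38 ± 0.06 (adjusted p = 0.0066). Lrpprc, which binds and stabilises mitochondrial mRNAs, was at 188.7 and 194.7, 165.1 and 161.4, and 131.1 and 135.4 CPM and fell by 0.29 with TGF-β (adjusted p = 0.0085, lost at 0.062 without treated replicate 1), to 0.52 below WT (adjusted p = 0.00028). Among 13 tested nuclear regulators of mitochondrial genes, 3 rose and 2 fell in Smad4 KO and 4 fell with TGF-β, a count of 2 without Smad4 KO 1 or treated replicate 2 and 1 without Smad4 KO 2 or treated replicate 1. As shares of the regulators, 23.1% rose and 15.4% fell in Smad4 KO, near the 16.9% and 13.4% of all genes. With TGF-β added 30.8% fell, beside 8.48% of all genes. Esrrg, an estrogen-related receptor, stepped down from 27.1 and 26.6 CPM in WT to 8.09 and 9.52 in Smad4 KO and 1.99 and 1.55 with TGF-β, by 1.61 (adjusted p = 0.00065) and 2.31 ± 0.17 (adjusted p = 0.0004). Ppara, a lipid-sensing receptor of fatty acid oxidation, was at 13.6 and 16.3, 41.1 and 49.4, and 26.9 and 26.1 CPM, a rise of 1.60 ± 0.13 in Smad4 KO (adjusted p = 0.00032).

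Markers of cell types moved across the same groups. The 25 enterocyte markers summed to 6397 and 6425 CPM in WT, 18310 and 18390 in Smad4 KO and 12550 and 12660 with TGF-β; 21 rose and 2 fell in Smad4 KO, 1 rose and 21 fell with TGF-β, and against WT 14 were higher and 7 lower with TGF-β. Nuclear members numbered 20 and 2, 0 and 35, and 2 and 20 in the same order, so the last comparison differed in direction between the lists. The shares of all genes in that order were 16.9% and 13.4%, 7.78% and 8.48%, and 20.7% and 19%. The 17 crypt base stem cell markers summed to 8916 and 8812, 5487 and 5527, and 4117 and 4113 CPM, the 20 proliferation markers to 3889 and 3855, 2727 and 2737, and 2619 and 2609, and the 11 Paneth cell markers to 8612 and 8632, 3526 and 3696, and 3571 and 3482. In Smad4 KO 1 stem cell marker rose and 15 fell, 0 and 18 for proliferation, and 2 and 8 for Paneth cells. With TGF-β added these counts were 3 and 9, 0 and 0, and 2 and 3, so directions were mixed within the first and last list. None of these markers was at 0 in all libraries. Their part in the levels of oxidative phosphorylation genes was not tested.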

How the data were processed

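Total RNA of the 6 samples was reverse transcribed from random hexamers, per the labels' protocols, and sequenced in bulk. The authors deposited estimated counts per Ensembl gene, as whole numbers in 1 table, and these expected counts were used without further rounding. The submitters' processing notes name the build GRCm38 and, in no stated order, StringTie 1.3.3b, SAMtools 1.9, HISAT2 2.1.0 and FastQC 0.11.9. Which annotation release and strand setting they used is not given in the sources used here. StringTie divides fragments among overlapping transcripts and copies, so genes that share sequence are uncertain. Multiples of 4 made up 42.3% of low values (1 to 24), where an even spread would give 25%, so a fragment was taken as about 4 units. This is an inference. Totals of 40.55 to 50.7 M units limit the precision of low genes.

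Symbols and positions came from GENCODE vM21 on GRCm38, which matched 31130 of 31227 genes; 97 had no symbol. A unit per length is CPM per kb of the principal transcript. Copies were sought among GENCODE transcripts with BLAST 2.17.0 at 95% identity over at least 50% of the transcript. Promoter windows came from RefSeq, and bases inside the GENCODE span of the gene were not printed. Libraries were grouped by their titles. filterByExpr kept 15503 genes, TMM scaled the libraries, and edgeR 4.0.16 in R 4.3.3 (glmQLFit and glmQLFTest, 2-sided, group as the only term, 3 residual degrees of freedom) was fitted to the whole table, with Benjamini-Hochberg adjustment over all genes. SE is that of the fitted model. Lists are described by counts and medians, without a list test. The fit was checked on simulated counts for Smad4 KO against WT alone, with set changes larger than most differences of members reported here. Python 3.11.15, pandas 2.3.3 and matplotlib 3.10.9 did the rest.

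The 13 alternatives were DESeq2 1.42.0, edgeR with DESeq2 size factors, scaling without mitochondrial genes, no filter on low counts, values divided by 4, only the 4 libraries of a comparison, a replicate block, and leaving out each of the 6 libraries. Replicate numbers in the labels were checked for pairing. Deviations of same-numbered libraries correlated at 0.001 to 0.014 over all genes, so the numbers were not taken as pairs.

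Members, gene lists and tests were chosen with earlier results of these data known, and patterns seen here are not independent evidence. Genes were named by a rule: all mitochondrial and Sdh genes, the most abundant nuclear member of each complex per kb, per comparison and complex up to 3 highest and 3 lowest differences among passing members with at least 5 CPM in the higher group, isoform families, Smad4, and the 2 smallest adjusted p of each pathway list per comparison. Some genes that this rule takes are not reported here. Atp5f1 and genes given only as members that passed under every alternative were named after their values were seen. Copies of mitochondrial genes and organoids of WT with TGF-β are not analysed here.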

Additional observations from a re-analysis of the deposited data

How the results depend on the processing

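Under the 13 alternatives, no difference of a named gene that passed, in the reported fit or in the alternative, turned its sign; some that did not pass lay on both sides of 0. Leaving out 1 library moved counts most. The nuclear count of higher members ran from 10 to 19 for Smad4 KO against WT, from 0 to 0 for TGF-β against Smad4 KO and from 1 to 3 for TGF-β against WT. The nuclear count of lower members ran from 1 to 3, from 16 to 32 and from 10 to 20 in the same order. The mitochondrial count of higher genes ran from 4 to 6, 0 to 0 and 2 to 4, and of lower genes from 2 to 3, 9 to 13 and 6 to 7. Over all genes, 2015 to 2438, 656 to 1108 and 2479 to 3140 were higher and 1166 to 1867, 848 to 1196 and 1990 to 2872 lower. For lower genes of Smad4 KO against WT the libraries that moved the count most were WT 1 (1166), WT 2 (1227) and Smad4 KO 1 (1387); for TGF-β against Smad4 KO, 768 were higher without Smad4 KO 2, 656 and 658 without the treated replicates, and 848 to 876 were lower without any 1 of the 4 libraries compared. Where a group kept 1 library, its spread was taken from the other groups. None of these counts moved by over 1.5 times under the other 7 alternatives, DESeq2 included, and other scalings moved the median of all genes by at most 0.02.

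With a replicate block, nuclear members numbered 18 higher and 2 lower in Smad4 KO, 0 and 26 with TGF-β against Smad4 KO, and 2 and 18 with TGF-β against WT, and mitochondrial genes 5 and 3, 0 and 11, and 3 and 7. Same-numbered libraries correlated over members at -0.25 to -0.138, so the pairing rests on a number alone.

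With 2 libraries a group and 3 residual degrees of freedom, small differences in low genes could not be detected, and a difference that did not pass is not shown to be absent.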

Other observations

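The mitochondrial ribosome, which translates the 13 mitochondrial genes, has 78 nuclear genes of its own. In WT these 78 genes summed to 3764 and 3777 CPM, against 14550 and 14540 for the 86 nuclear members, and shares called rise with level. With TGF-β added to Smad4 KO, 1 of 78 rose and 0 fell in edgeR, with a median of -0.06, where 35 of 80 nuclear and 12 of 13 mitochondrial oxidative phosphorylation genes fell. Over all genes 7.78% rose and 8.48% fell, and of the 78 ribosome genes 52 had a difference below 0. In Smad4 KO against WT 2 rose and 6 fell, where 16.9% and 13.4% of all genes did; without 1 library the 2 became 0 or 1 and the 6 ran from 1 (without Smad4 KO 1), 2 (without WT 2) and 3 (without WT 1) to 8. With TGF-β against WT 2 were higher and 15 lower, beside 20.7% and 19% of all genes; without 1 library the 2 ran from 1 to 3 and the 15 from 7 to 12 (9 without WT 1, 7 and 8 without the treated replicates). The 1 that rose with TGF-β became 3 without Smad4 KO 2. The difference between the lists was not tested. Mrps6, a protein of the small subunit, was the gene that rose, at 25.2 and 22.8 CPM in WT, 31.4 and 28.4 in Smad4 KO and 55.1 and 59.7 with TGF-β (0.94 ± 0.1 against Smad4 KO, edgeR adjusted p = 0.0014).

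Of 9 tested genes for uncoupling and mitochondrial antioxidant enzymes, 4 rose and 1 fell in Smad4 KO and 4 fell with TGF-β, a count of 2 without treated replicate 1. As shares, 44.4% rose and 11.1% fell in Smad4 KO, beside 16.9% and 13.4% of all genes. With TGF-β added 44.4% fell, beside 8.48% of all genes. Ucp2, a carrier of the inner membrane, stood at 418.3 and 392 CPM in WT, 632.9 and 616.4 in Smad4 KO and 483.6 and 501.9 with TGF-β, a rise of 0.62 (edgeR adjusted p = 0.00013) and a fall of 0.34 (adjusted p = 0.0028). Slc25a5, which exchanges ADP for the ATP that complex V makes, was at 824 and 828.8, 1023 and 1033, and 904.7 and 879.8 CPM, a rise of 0.31 (adjusted p = 0.00022) and a fall of 0.20 (adjusted p = 0.0023).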
